A study of Homo sapiens with 6 samples.

Results

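The MHC class I and peptide loading genes measured here were HLA-B, HLA-C, HLA-E, HLA-F, B2M, TAP1, TAP2 and TAPBP. The list was fixed by gene name, with earlier results of these data known. The genes are 8 of the 23284 gene symbols in the tables, each taken as its record on chromosome 6 (chromosome 15 for B2M) of the primary hg19 assembly. All 8 were among the 11134 genes that passed the filter on low values. The samples came from GM12873, an established lymphoblastoid cell line, that is, B cells made to grow without limit by Epstein-Barr virus. The 3 control samples were washed cells lysed without drying, and the 3 lyophilized samples were the same number of washed cells that were freeze-dried in 0.1 M trehalose, a sugar that protects dried cells, and kept for 2 weeks at room temperature before lysis. No gene was edited or induced in either group, and the labels pair control 1, 2 and 3 with lyophilized 1, 2 and 3. Poly(A) RNA was sequenced as single 75-base reads, and a level is given as FPKM, fragments per kilobase of transcript, scaled to the mapped fragments of the library. The question was whether RNA levels after dry storage matched those of the paired control.

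MHC class I molecules display short peptides from inside the cell on its surface, where CD8 T cells read them. A class I molecule is a heavy chain (HLA-B, HLA-C, HLA-E or HLA-F among these genes) bound to the small constant subunit beta-2 microglobulin, the product of B2M. Peptides cut by the proteasome are pumped into the endoplasmic reticulum by TAP1 and TAP2, which form one transporter, and tapasin, the product of TAPBP, holds empty class I molecules beside it until a peptide binds. B cells carry much class I on their surface, and interferon raises many of these genes together.

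Heavy chain genes are close relatives of each other, and the transporter subunits are more distant ones that still share 1 stretch of read length, shown first. On hg19, TAP1 (chr6:32815763-32815842, minus strand) and TAP2 (chr6:32798111-32798190, minus strand) share 80 bases of coding sequence that include the codons of the Walker A motif, the ATP-binding loop of such transporters, in capitals.
TAP1 and TAP2: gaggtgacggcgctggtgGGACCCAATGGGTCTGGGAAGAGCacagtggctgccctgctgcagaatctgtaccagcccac

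Stretches found base for base at more than 1 place were a small part of each gene. Stretches that differ from another place by a few bases were not counted, so where reads with mismatches were placed was not tested. Of all 75-base stretches of its exons, 0% of those of HLA-B, HLA-F and B2M occurred at another place in the genome, 0.13% for TAP2, 0.32% for TAP1, 2.81% for HLA-E and 2.85% for HLA-C. The share was highest for TAPBP, at 5.01% (145 of 2897 stretches). The authors kept only reads with a single mapping position, and the 41 further records of these genes on alternate haplotypes were 0 in every sample. Class I genes differ in sequence between people and the reads were mapped to 1 reference haplotype, so the level of a heavy chain gene may miss reads from alleles unlike the reference, and how many was not tested.

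Promoters of these genes had some short motifs in common. The RefSeq promoter table (GRCh38.p14, from 250 bases before to 50 bases after the start) matched 7 of the 8 genes, and 4 motifs were searched on both strands. None of the 4 was found in all 7 promoters. GAAA, any 2 bases, GAAA, the core of the element bound by interferon regulatory factors, was found in 5 of 7 promoters (HLA-F, B2M, TAP1, TAP2 and TAPBP), against 3.57% of the 35116 promoters in the table. The NF-kB motif was found in 5 of 7 (HLA-B, HLA-C, B2M, TAP1 and TAPBP), against 5.91%. CCAAT, the NF-Y site, was found in 5 of 7 (against 34.61%) and TGACG, the core of the CREB site, in 4 of 7 (against 24.55%). Promoters of B2M, HLA-B, TAPBP, TAP1 (the first of its 2 entries) and TAP2 are shown, and those of HLA-C and HLA-F are not. Motif matches are in capitals, and matches to different motifs may run together.
B2M, chr15:44711267-44711566, plus strand: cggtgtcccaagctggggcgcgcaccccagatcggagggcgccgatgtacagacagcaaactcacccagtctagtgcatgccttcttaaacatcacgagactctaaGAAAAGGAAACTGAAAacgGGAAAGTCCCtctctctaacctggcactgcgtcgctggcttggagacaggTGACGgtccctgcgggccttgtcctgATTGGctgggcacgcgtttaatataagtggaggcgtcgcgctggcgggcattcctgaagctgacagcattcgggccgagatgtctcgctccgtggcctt
HLA-B, chr6:31357130-31357429, minus strand: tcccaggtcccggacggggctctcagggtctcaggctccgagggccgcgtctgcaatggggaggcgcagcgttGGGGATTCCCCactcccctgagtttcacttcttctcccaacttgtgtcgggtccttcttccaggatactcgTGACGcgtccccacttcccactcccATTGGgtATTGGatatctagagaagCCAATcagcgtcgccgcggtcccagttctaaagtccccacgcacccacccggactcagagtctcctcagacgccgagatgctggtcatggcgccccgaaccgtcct
TAPBP, chr6:33314029-33314328, minus strand: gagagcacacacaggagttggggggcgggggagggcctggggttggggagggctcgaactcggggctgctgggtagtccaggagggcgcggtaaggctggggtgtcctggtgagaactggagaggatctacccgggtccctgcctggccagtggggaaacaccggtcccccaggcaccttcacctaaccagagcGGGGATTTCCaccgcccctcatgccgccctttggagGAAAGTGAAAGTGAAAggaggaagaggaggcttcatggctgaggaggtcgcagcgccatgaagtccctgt
TAP1, chr6:32853655-32853954, minus strand: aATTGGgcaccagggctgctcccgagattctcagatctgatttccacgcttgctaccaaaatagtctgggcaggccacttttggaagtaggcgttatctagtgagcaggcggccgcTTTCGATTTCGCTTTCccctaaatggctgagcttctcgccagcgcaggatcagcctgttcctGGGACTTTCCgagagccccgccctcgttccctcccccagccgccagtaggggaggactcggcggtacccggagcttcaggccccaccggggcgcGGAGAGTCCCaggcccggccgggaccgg
TAP2, chr6:32838690-32838989, minus strand: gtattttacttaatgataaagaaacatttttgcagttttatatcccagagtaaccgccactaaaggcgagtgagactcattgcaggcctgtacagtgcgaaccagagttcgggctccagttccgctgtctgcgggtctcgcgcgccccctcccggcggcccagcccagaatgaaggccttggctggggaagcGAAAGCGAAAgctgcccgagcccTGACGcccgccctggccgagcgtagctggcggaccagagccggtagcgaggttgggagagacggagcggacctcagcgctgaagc

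In B2M, overlapping GAAA pairs lie just before an NF-kB match, and TAPBP holds the same GAAA spacing close to its start. HLA-B holds no GAAA pair of this spacing, 3 CCAAT matches and 2 overlapping NF-kB matches. A match of letters is not a measured binding site.

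The libraries looked like the labelled cell type in both groups. All 11 markers of B cells and lymphoblastoid cells (MS4A1, CD79A and CD74 among them) passed the filter, and their summed level ran from 5207 to 7575 FPKM over the control samples, against 5144 to 7412 FPKM after lyophilization. Summed T cell markers stayed between 0.136 and 0.379 FPKM, NK cell markers between 0 and 0.146 FPKM, monocyte markers between 0.272 and 0.860 FPKM and fibroblast markers between 0.0753 and 0.423 FPKM. The 4 epithelial markers summed to between 1.03 and 1.63 FPKM, and KRT18 was the one of them that passed the filter. The study gives read numbers per library, but the files hold no read counts per gene, so no counting interval was computed for these values. In a bulk sample, fewer cells with a transcript and less of it per cell cannot be told apart.

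The class I pathway was highly expressed in both groups. The 8 genes held 1.27% to 1.64% of all FPKM in a control sample, against 1.28% to 1.66% after lyophilization. On the FPKM scale, which is per length, B2M ranked 5th among the 11134 tested genes by mean level, HLA-B 63rd, HLA-C 91st, HLA-E 213th, HLA-F 381st, TAP1 468th, TAPBP 1302nd and TAP2 2008th. Most neighbours in this order did not overlap within either group. In the controls, HLA-E and HLA-F overlapped across samples (210.0 to 428 against 140 to 226 FPKM), and so did HLA-F and TAP1 (116 to 164 FPKM for TAP1). In the lyophilized samples HLA-F and TAP1 overlapped, and in lyophilized 3 TAP1 stood above HLA-F.

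**Figure D1:**
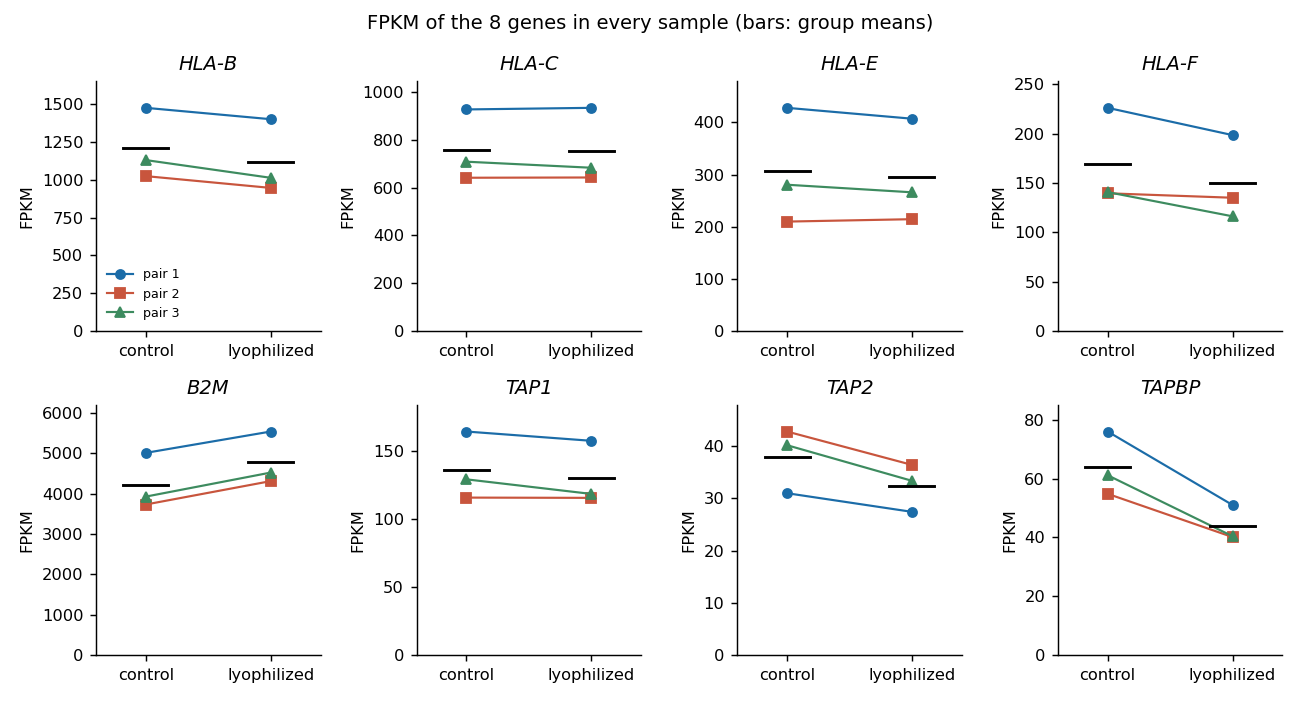
FPKM (linear axis from 0) of each gene in the 3 control and 3 lyophilized samples, with a line joining the samples of a pair and a black bar at each group mean. Pair 1 lies highest for 7 of the 8 genes and lowest for TAP2, and TAPBP is the gene whose control values (54.8 to 76.0) all lie above its lyophilized values (40.1 to 51.0).

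The plot of levels by sample shows replicate 1 apart from replicates 2 and 3 in both groups. Replicate 1 was the highest of its group for 7 of the 8 genes, in the controls and again in the lyophilized samples. HLA-E, the heavy chain that NK cells read through CD94/NKG2 receptors, showed this most: control 1 was 1.75 times the mean of controls 2 and 3, and lyophilized 1 was 1.69 times that of lyophilized 2 and 3. For HLA-F the values were 1.61 and 1.58 times, for HLA-B 1.37 and 1.43 times, and for B2M 1.31 and 1.25 times. TAP2 ran the other way, at 0.747 and 0.786 times, while the median over all tested genes was 0.911 and 0.933 times. The labels do not say what sets replicate 1 apart. The paper saw a slight shift in the share of reads held by the most abundant genes in control 1 and lyophilized 1. It proposes that this might come from the state of the cells when harvested. In its list of libraries, control 1 had the fewest raw reads and lyophilized 1 the most. The cause was not tested here.

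Without the pairing, none of the 8 genes differed between lyophilized and control samples in limma (adjusted p below 0.05 over all tested genes), a test that called 64 genes in all, 0.575% of those tested. TAPBP was the 1 gene of the 8 with an unadjusted p below 0.05, beside 1573 of all 11134 tested genes. With the pair number as a block, limma called 5 of the 8 genes: 4 lower in the lyophilized samples (HLA-B, HLA-F, TAP2 and TAPBP), where 14.9% of all tested genes were lower, and 1 higher (B2M), where 15.9% were. The fold changes were the same in both fits, and the difference lay in the error. Pairing rests on the labels and on the paper, which lists the same pairs. Over all tested genes the deviations of paired samples from their group means correlated at r = 0.716, 0.603 and 0.476.

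**Figure D2:**
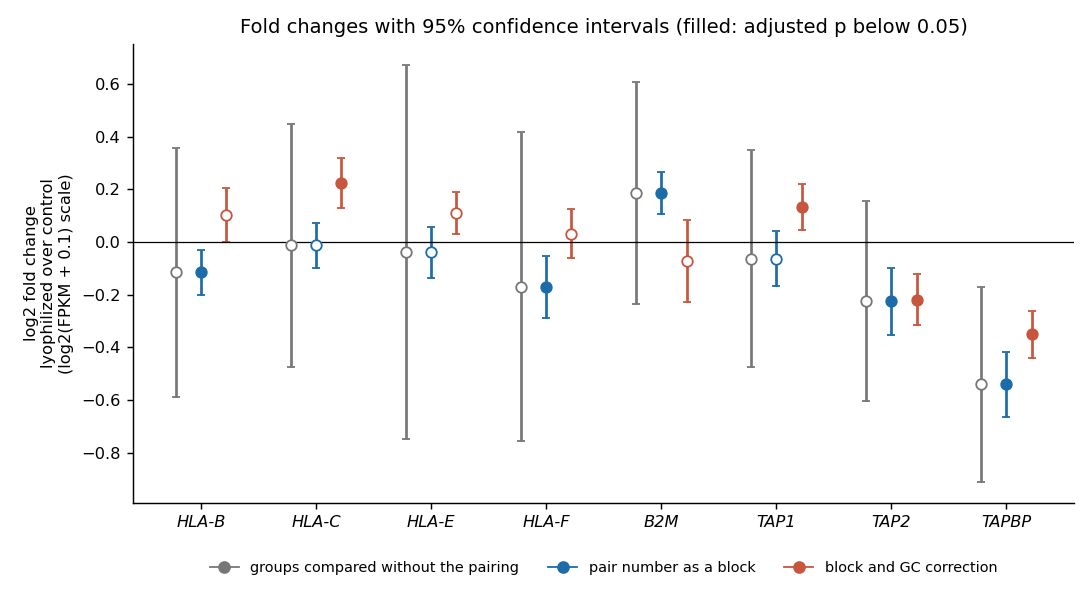
Log2 fold change of lyophilized over control (log2(FPKM + 0.1) scale) for each gene with its 95% confidence interval, from limma without the pairing (grey), with the pair number as a block (blue) and with the block after a correction for transcript GC content (red), filled where the adjusted p is below 0.05. TAPBP and TAP2 lie below 0 in all 3 fits and are filled in both fits with the block, whereas B2M lies above 0 until the correction.

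Tapasin carried the widest difference of the 8 genes. TAPBP (chr6:33267472-33282164 on hg19, minus strand, 8 exons) read 76.0, 54.8 and 61.1 FPKM in controls 1 to 3, against 51.0, 40.1 and 40.4 FPKM in lyophilized 1 to 3. Every lyophilized sample lay below every control, which held for 1 of the 8 genes and for 12.6% of all tested genes. The means were 64.0 ± 10.9 FPKM (SD, n = 3) for controls, against 43.8 ± 6.22 FPKM (SD, n = 3) after lyophilization, a ratio of 0.685. The log2 fold change was -0.54 (SE 0.16) with an adjusted p of 0.199 in limma without the pairing, and SE 0.055 with an adjusted p of 0.000429 with the block. Only 4.50% of the tested genes had a lower fold change. With the block, TAPBP passed the threshold with any one pair left out, the fold change running from -0.59 to -0.51. In those smaller fits limma takes the error mostly from other genes, so these calls say little about the spread of TAPBP itself. An unnamed gene on the opposite strand overlaps 1397 of its 3450 exon bases, and the kit does not mark strand, so reads of either cannot be told apart.

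Of the transporter subunits, TAP2 was lower with the block by less than TAPBP, and TAP1 was not called. TAP2 (chr6:32789610-32806547, minus strand, 12 exons) read 30.99, 42.8 and 40.2 FPKM in controls 1 to 3, against 27.4, 36.4 and 33.4 FPKM in lyophilized 1 to 3. It was lower in all 3 pairs although the groups overlapped, with means of 38.0 ± 6.21 and 32.4 ± 4.58 FPKM (SD, n = 3 each). The fold change on the log2 scale was -0.23 (SE 0.16, adjusted p = 0.544 in limma; SE 0.057, adjusted p = 0.0173 with the block). Without pair 3 the blocked adjusted p was 0.200. A gene on the same strand shares 2023 of its 5643 exon bases, so part of its level cannot be assigned to it alone.

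TAP1 (chr6:32812986-32821748, minus strand, 11 exons) read 164, 116 and 129 FPKM in controls 1 to 3. The lyophilized samples read 157, 115 and 118 FPKM. The values were lower in 3 of 3 pairs, by a log2 ratio of only -0.0036 in pair 2, and the groups overlapped. The log2 fold change was -0.063, with an interval from -0.17 to 0.042 and an adjusted p of 0.319 with the block in limma. After the GC correction it was called higher relative to genes of like GC content (0.13, adjusted p = 0.0460). PSMB8-AS1 overlaps 368 of its 2685 exon bases on the opposite strand.

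B2M was the 1 gene of the 8 that was higher in every lyophilized sample than in its control. B2M (chr15:45003685-45010357, plus strand, 4 exons) read 5012, 3731 and 3927 FPKM in controls 1 to 3, against 5541, 4311 and 4523 FPKM in lyophilized 1 to 3. The groups overlapped because control 1 lay above lyophilized 2 and 3. The means were 4223 ± 690.0 and 4792 ± 658 FPKM (SD, n = 3 each), a ratio of 1.14. The fold change on the log2 scale was 0.19 (SE 0.18, adjusted p = 0.661 in limma; SE 0.035, adjusted p = 0.00548 with the block). Without pair 3 the blocked adjusted p was 0.0808, and a correction for transcript GC content, described further on, turned the value to -0.073 (adjusted p = 0.503).

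The classical heavy chains, which present peptides to CD8 T cells, differed from their controls by log2 ratios between -0.16 and 0.010 over the pairs. HLA-B (chr6:31321649-31324989, minus strand, 8 exons) read 1475, 1024 and 1130.0 FPKM in controls 1 to 3, against 1400.0, 946 and 1013 FPKM in lyophilized 1 to 3. It was lower in 3 of 3 pairs with overlapping groups, at a log2 fold change of -0.12 (SE 0.20, adjusted p = 0.819 in limma; SE 0.038, adjusted p = 0.0437 with the block). The blocked call was lost without pair 1 (adjusted p = 0.0713) and without pair 3 (adjusted p = 0.413), and the GC correction turned the value to 0.10 (adjusted p = 0.157). An unnamed gene on the opposite strand overlaps 364 of its 1536 exon bases.

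HLA-C (chr6:31236526-31239913, minus strand, 8 exons), the main class I ligand of killer-cell immunoglobulin-like receptors on NK cells, read 926, 641 and 708 FPKM in controls 1 to 3. The lyophilized samples read 933, 642 and 683 FPKM. The log2 ratios were 0.010 in pair 1, 0.0025 in pair 2 and -0.052 in pair 3, so the pairs were mixed. The log2 fold change was -0.013 with a blocked interval from -0.099 to 0.073, and an adjusted p of 0.813 in limma, and the GC correction turned it to 0.22 (adjusted p = 0.00813).

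The non-classical heavy chains HLA-E and HLA-F vary little between people. HLA-E (chr6:30457183-30461982, plus strand, 8 exons) read 428, 210.0 and 281 FPKM in controls 1 to 3, against 407, 215 and 266 FPKM in lyophilized 1 to 3. Pairs 1 and 3 were lower and pair 2 higher. The log2 fold change was -0.039 with a blocked interval from -0.14 to 0.058 (limma, adjusted p = 0.508).

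HLA-F (chr6:29691117-29695073, plus strand, 7 exons) read 226, 140 and 141 FPKM in controls 1 to 3, against 199, 135 and 116 FPKM in lyophilized 1 to 3. It was lower in 3 of 3 pairs, with a log2 fold change of -0.17 (SE 0.25, adjusted p = 0.785 in limma; SE 0.053, adjusted p = 0.0370 with the block). The groups overlapped. Without pair 1 the blocked adjusted p was 0.0984, and without pair 3 it was 0.364. After the GC correction it was 0.031 and not called (adjusted p = 0.649). On the opposite strand, an unnamed gene overlaps 364 of its 1480 exon bases and the antisense gene HLA-F-AS1 overlaps 257.

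Over the 8 genes, 5 were lower in all 3 pairs, 1 was higher in all 3 and 2 were mixed, whereas 28.8% and 33.4% of all tested genes were lower and higher in all 3. The median log2 fold change of the 8 genes was -0.089, beside 0.039 over all tested genes. These counts describe the list and are not a test of it.

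GC content moved with the fold change across all genes, and all of the 8 genes but B2M lay above its median. Over the 9688 tested genes with a matched canonical transcript, fold change and transcript GC content had a Spearman rho of -0.785, a description across genes of the same 6 libraries. Over the 8 genes alone the rho was -0.024, also a description. B2M had a transcript GC content of 39.1%, TAP2 48.9% and HLA-E 55.1%, and the other 5 lay between 57.1% and 60.1%, where the median tested gene had 48.1%.

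**Figure D3:**
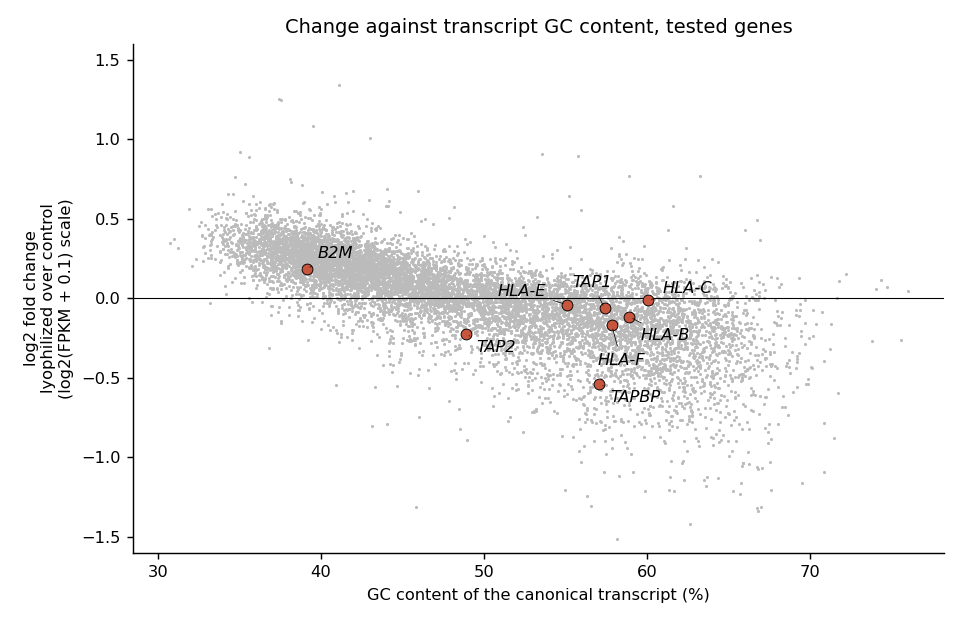
Log2 fold change of lyophilized over control (log2(FPKM + 0.1) scale, without the pairing) against the GC content of the canonical transcript in percent, for 9688 tested genes (grey; 3 lie outside the axis) and the 8 genes (red). B2M sits alone at 39.1% GC within the higher-fold-change end of the cloud, while TAP2 at 48.9% and TAPBP at 57.1% lie low among genes of like GC content.

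In the plot of fold change against GC content, TAPBP and TAP2 lay toward the bottom of the cloud at their GC content. With the block and a loess curve over GC content subtracted in each sample, limma called 4 of the 8 genes, 2 lower (7.95% of 9688 genes were lower) and 2 higher (10.1% were). After the correction, 4.52% of the tested genes had a lower fold change than TAPBP and 9.99% than TAP2. TAPBP stayed lower at a log2 fold change of -0.35 (SE 0.039, adjusted p = 0.00145) and TAP2 at -0.22 (SE 0.042, adjusted p = 0.00969). HLA-C and TAP1 were higher relative to genes of like GC content, with SE 0.041 and 0.038. The subtraction also removes any part of the difference between groups that follows GC content. B2M turned below 0 and HLA-B, HLA-F and HLA-E (0.11, adjusted p = 0.0682) above it, none of them past the threshold. The direction of every gene except TAPBP and TAP2 therefore changed with this correction, although that of HLA-B did not when the longest transcript of each gene was used (-0.012).

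Within a sample, a ratio of members does not depend on the scaling between samples. B2M over the summed heavy chains (HLA-B, HLA-C, HLA-E and HLA-F) was 1.64, 1.85 and 1.74 in controls 1 to 3, against 1.89, 2.22 and 2.18 in lyophilized 1 to 3. All 3 lyophilized ratios lay above all 3 control ratios. The means were 1.74 ± 0.106 and 2.10 ± 0.183 (SD, n = 3 each), 20.02% higher after lyophilization (log2 difference 0.26, two-sided exact permutation test, p = 0.1, the smallest that 3 against 3 allows). An exact sign-flip test on the 3 pairs gave p = 0.25, also the smallest possible. With FPKM times transcript length the groups overlapped, at 1.065 in control 2 and 1.062 in lyophilized 1 (log2 difference 0.26, exact permutation test, p = 0.2). After the GC correction the ratio was 2.36, 1.83 and 2.00 for controls 1 to 3, against 1.74, 1.87 and 1.71 for lyophilized 1 to 3, which reverses the direction.

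**Figure D4:**
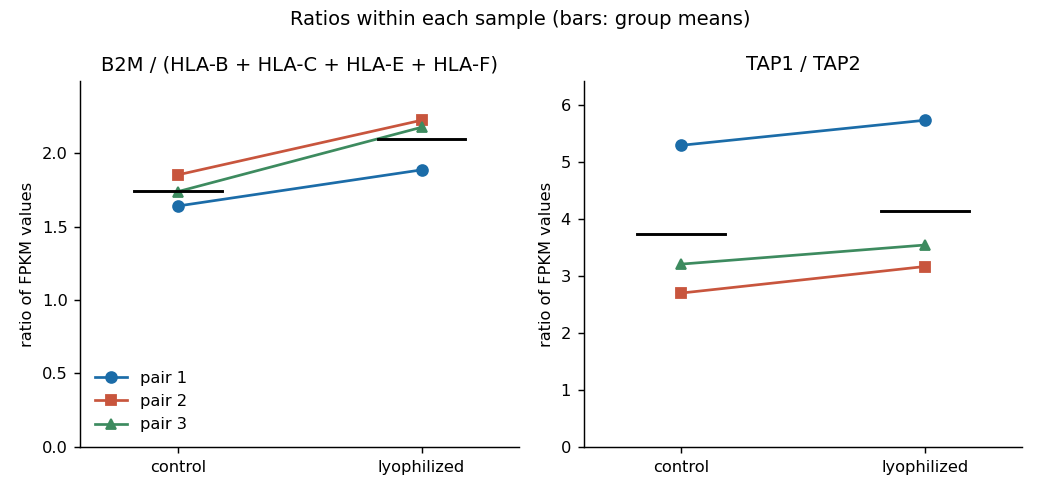
Ratio of FPKM values within each sample (linear axis from 0) for B2M over the 4 summed heavy chains (left) and TAP1 over TAP2 (right), with a line joining the samples of a pair and a black bar at each group mean. All 3 lyophilized samples lie above all 3 controls on the left, and on the right pair 1 (5.29 and 5.73) lies above pairs 2 and 3 (2.70 to 3.54).

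TAP1 over TAP2 was 5.29, 2.70 and 3.21 in controls 1 to 3, against 5.73, 3.17 and 3.54 in lyophilized 1 to 3. It was higher in 3 of 3 pairs, with a log2 difference of 0.16 (two-sided exact permutation test, p = 0.6; exact sign-flip test, p = 0.25), and the groups overlapped. As the plot of ratios shows, the spread among controls (1.96 times from lowest to highest) was wider than the difference between groups. Each sample held more TAP1 than TAP2 per length.

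Of 58 further genes of the pathway in 4 lists, 57 were in the tables and 45 passed the filter. Without the pairing limma called 0 of the 45, where 0.575% of all tested genes were called. At an unadjusted p below 0.05 there were 2 (NLRC5 and RELA), beside 1573 of all 11134 tested genes. With the block, 3 of the 45 were lower and 4 higher, where 14.9% and 15.9% of all tested genes were. After the GC correction 2 were lower and 9 higher, where 7.95% and 10.1% of genes were. Among the genes that act on class I transcription, 3 of 14 were lower with the block, beside the 14.9% of all tested genes. NLRC5, the transactivator of class I genes, read 28.8, 22.1 and 24.5 FPKM in controls 1 to 3, against 19.0, 17.8 and 17.4 FPKM in lyophilized 1 to 3, so the groups did not overlap. Its log2 fold change was -0.47 (SE 0.13, adjusted p = 0.169 in limma; adjusted p = 0.00244 with the block; -0.26 after the GC correction, adjusted p = 0.00885). RELA, an NF-kB subunit, followed at -0.42 (blocked adjusted p = 0.00230; -0.21 after the correction). USF2, which had the highest mean of the list (103 FPKM for controls), was lower at -0.18 (blocked adjusted p = 0.0256; 0.12 and not called after the correction). CREB1 had the highest fold change of this list, 0.30, and did not pass the test (blocked adjusted p = 0.0642). RFXANK, at -0.071 (limma, blocked adjusted p = 0.393), was the 1 gene of this list called higher after the correction (0.17, adjusted p = 0.0296).

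**Figure D5:**
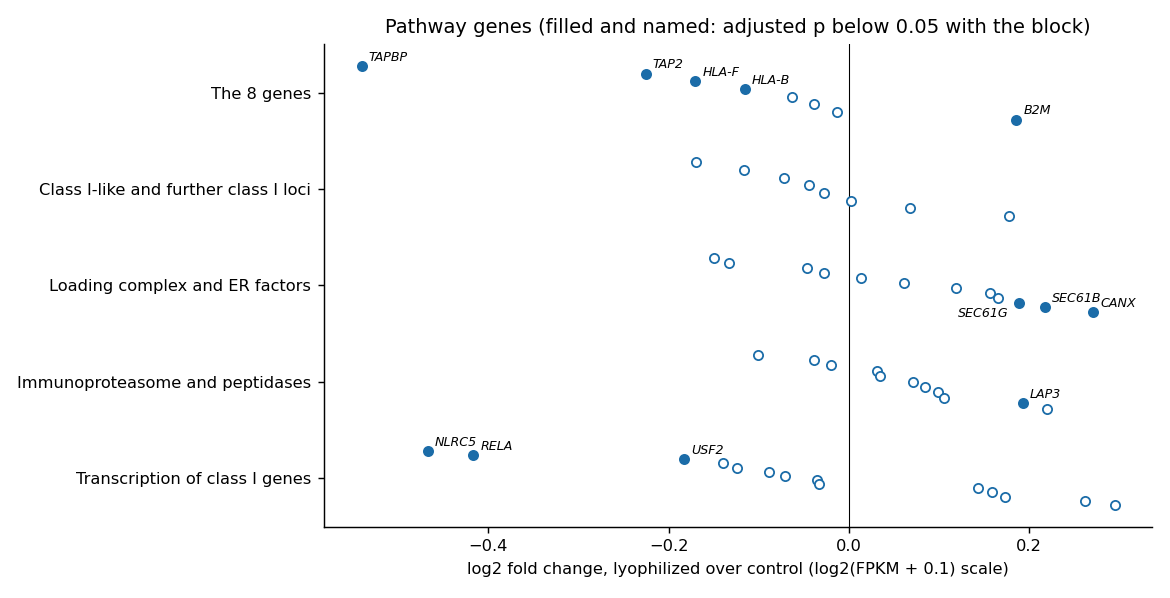
Log2 fold change of lyophilized over control (log2(FPKM + 0.1) scale) of the 8 genes and of the tested genes of 4 pathway lists, 1 circle per gene, filled and named where limma with the pair number as a block gave an adjusted p below 0.05. TAPBP (-0.54), NLRC5 (-0.47) and RELA (-0.42) lie farthest to the left, and CANX (0.27) is the filled gene farthest to the right.

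The plot of pathway lists shows 3 of the 12 loading factors called higher with the block, beside 15.9% of all tested genes. CANX, or calnexin, which chaperones new heavy chains, read 96.1, 137 and 116 FPKM in controls 1 to 3, against 128, 145 and 144 FPKM in lyophilized 1 to 3 (log2 fold change 0.27, blocked adjusted p = 0.0125 in limma). After the GC correction its value was 0.032 and not called. SEC61B and SEC61G, subunits of the channel by which new chains enter the endoplasmic reticulum, had log2 fold changes of 0.22 and 0.19 (blocked adjusted p = 0.00583 and 0.01001). SEC61B kept its call after the correction (0.23, adjusted p = 0.00476) and SEC61G did not. TAPBPL, the tapasin relative, had a log2 fold change of -0.15, the lowest of this list, and did not pass (blocked adjusted p = 0.256). CALR, or calreticulin, had the highest level, a mean of 376 FPKM for controls, against 362 FPKM after lyophilization.

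Among immunoproteasome subunits and peptidases, LAP3 was the 1 of 11 called with the block, with a log2 fold change of 0.19 (limma, adjusted p = 0.0302). In that fit 14.9% of all tested genes were called lower and 15.9% higher. After the GC correction 6 of the 11 were called higher, where 10.1% of all genes in that fit were. Relative to genes of like GC content, PSMB8, PSMB9 and PSMB10, the 3 catalytic immunoproteasome subunits, had 0.23, 0.17 and 0.30. PSME2 had 0.15, LAP3 0.20 and THOP1 0.19. Before the correction PSMB8, PSMB9 and PSMB10 had 0.085, 0.071 and 0.035, none called. TPP2 had the highest fold change of the list before it (0.22, blocked adjusted p = 0.0775) and THOP1 the lowest (-0.10). PSME1 had the highest mean, 391 FPKM for controls, against 386 FPKM after lyophilization.

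Of the other class I and class I-like loci, 8 of 20 passed the filter. Limma with the block called 0 of the 8, where 14.9% of all tested genes were lower and 15.9% higher. The lowest adjusted p was 0.131 for MICB. HLA-H, a class I pseudogene, had the highest level of these loci, with means of 95.8 ± 19.1 FPKM for controls and 101 ± 24.9 FPKM after lyophilization (SD, n = 3 each) and overlapping groups. Its log2 fold change was 0.068 (limma, blocked adjusted p = 0.357), and it was called higher after the GC correction (0.37, adjusted p = 0.00182). CD1C (0.18) and MICB (-0.17) had the highest and lowest fold changes without passing the test.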

How the data were processed

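RNA-Seq was done on 3 control and 3 lyophilized samples of GM12873. Per the labels and the study's methods, the authors mapped reads to hg19 with TopHat2 2.0.7 and deposited Cufflinks FPKM values, 1 per record and sample. The Cufflinks version and annotation are not given in the sources used here, and the tables hold no counts or intervals.

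The 24934 records were reduced to 1 per symbol. Small RNAs without poly(A) were left out, as were genes whose mean FPKM exceeded 1 in neither group. The rest were compared with limma 3.58.1 (R 4.3.3) after log2(FPKM + 0.1), with trend moderation and a Benjamini-Hochberg adjusted p below 0.05. The pairing was left out, as in the study, which used Cuffdiff. This scale understates changes of low genes. The fit was tested on simulated data. Alternatives added the pair number as a block, the block with a loess curve (span 0.3, degree 2) over canonical transcript GC content, another pseudocount, filter or scaling, and each sample or pair left out. Replicates are the labels' samples, and p-values cover only the spread among them. Limma pools that spread over all tested genes, so a gene's own spread enters at most in part. Named genes are the 8, and in each pathway list those with the highest and lowest fold change, the highest mean, or a call. The genes and lists were chosen with earlier results of these data known, and some genes of the lists are not reported here. Exon stretches of 75 bases were searched for exact matches on both strands of GRCh37. Further steps ran in Python 3.11.15 (pandas 2.3.3, scipy 1.17.1).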

Additional observations from a re-analysis of the deposited data

How the results depend on the processing

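TAPBP and TAP2 kept a negative fold change in all 20 alternatives run, and B2M a positive one in all but the 2 GC corrections. The files hold no counts per gene, so no counting error was given. The replicate block raised the calls from 64 to 3423 genes and from 0 to 5 of the 8 genes. The replicate block with GC correction called 1748 genes (4 of the 8), and over the longest transcript, an alternative chosen after seeing the data, 1751 genes (4 of the 8). With the block and 1 pair left out, 1264 (pair 3 out), 2194 (pair 1 out) and 5359 (pair 2 out) genes were called, with 1, 3 and 5 of the 8. Leaving out 1 sample without the block left 0 called in limma, with 879 to 2098 genes at an unadjusted p below 0.05, and the filter-free fit called 0, with 2069 such genes. Median-centred samples gave 97.

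The median of the 8 genes, -0.089, was -0.16 on the TPM scale, 0.066 and 0.0039 under the 2 GC corrections, and -0.25 to 0.069 with 1 sample left out. On the TPM scale the median over all tested genes moved as well, from 0.039 to -0.029. B2M over the heavy chains reversed to -0.21 under the GC correction, which was added after seeing the data (0.22 to 0.34 with 1 sample left out). TAP1 over TAP2 ran from -0.096 to 0.45 with 1 sample left out, reversing without control 2 (-0.040) and without lyophilized 1 (-0.096). In the paired sign-flip test neither ratio could pass.

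Fold changes that reversed under the GC correction over canonical and longest transcripts were 0.22 and 0.28 for HLA-C, 0.11 and 0.11 for HLA-E, 0.031 and 0.020 for HLA-F, -0.073 and -0.073 for B2M and 0.13 and 0.13 for TAP1, and 0.10 for HLA-B over canonical transcripts alone (-0.012 over the longest). With 1 sample left out, fold changes ran from -0.29 to 0.036 for HLA-B, -0.18 to 0.14 for HLA-C, -0.30 to 0.23 for HLA-E, -0.39 to 0.059 for HLA-F and -0.21 to 0.079 for TAP1, and HLA-C reached 0.0064 with the block and pair 3 left out. The cause was not tested.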

Other observations

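Ligands of the NKG2D receptor and lipid-presenting CD1 genes were mostly at the bottom of the scale in both groups. MICA read 8.83, 7.34 and 9.34 FPKM in controls 1 to 3, against 8.55, 7.69 and 8.69 FPKM in lyophilized 1 to 3, and its groups overlapped. ULBP3, RAET1E and RAET1G were listed at 0 in all 6 samples. CD1C, which shows lipids to T cells, was the 1 CD1 gene that passed the filter, at 2.21 to 4.70 FPKM over controls, against 2.81 to 5.17 FPKM after lyophilization, and it was lowest in replicate 1 of both groups.

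Outside the pathway, the 5 tested genes whose level over the 6 samples was most like the mean standardized level of the 8 genes were SERINC2, R3HDM4, PGLS, CSRNP1 and PTP4A3, with Pearson r from 0.997 to 0.999 over 6 samples. SERINC2 read 14.3, 5.27 and 6.82 FPKM in controls 1 to 3, against 11.5, 4.65 and 5.06 FPKM in lyophilized 1 to 3. Replicate 1 was highest in both groups for all 5, and the 6 points share the same libraries, so these values are a description with no test.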
